A study of Mus musculus with 4 samples.

Results

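The genes described here are 6 marker genes of rod bipolar cells, Prkca, Pcp2, Car8, Sebox, Vstm2b and Tpbg, chosen by name from the 22558 gene symbols listed for each retina library. All 6 were found in every library, each at 1 locus. Retinas came from Fezf2 knockout (KO) mice at postnatal day 14 (P14), control littermates at P14, KO mice at postnatal day 7 (P7) and control littermates at P7. The background strain is given as C57/BL/6J for all of them, the controls are labelled wildtype, and neither the targeted allele nor the number of animals per library is stated in the sources used here. The study asked what the transcription factor Fezf2 does in the developing retina. Total RNA of each group was sequenced as 1 library, so no group had a replicate. Levels are in FPKM, fragments scaled to transcript length and to the number of mapped fragments. Each level carries a deposited lower and upper bound that covers error within its library and not variation between libraries. The reads were amplified and carry no molecular identifiers.

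Rod bipolar cells are the retinal interneurons that carry signals of rod photoreceptors to the inner retina. They depolarise when light lowers glutamate release from the rods, through the receptor mGluR6 and the channel TRPM1, and in mice they are born after birth and mature as the outer plexiform synapses form. Prkca encodes protein kinase C alpha, the protein most widely stained to show these cells. Pcp2, also abundant in cerebellar Purkinje cells, encodes a modulator of inhibitory G proteins, and Car8 encodes a carbonic anhydrase-related protein without enzyme activity that binds an inositol trisphosphate receptor. Sebox encodes a homeodomain protein, Vstm2b a membrane protein with an immunoglobulin-like domain, and Tpbg a leucine-rich repeat glycoprotein of the cell surface. In whole retina, fewer cells of a type and less RNA per cell cannot be told apart, and Tpbg and Prkca are also made by some amacrine cells.

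Fezf2 was at 0.126 FPKM in the KO library against 4.02 FPKM in the control library at P14, and at 0.592 FPKM in the KO library against 8.32 FPKM in the control library at P7. Between 12564 and 12788 genes reached 1 FPKM in a library. At the median gene of 10 FPKM or more, the distance from level to bound was 6.06% to 7.33% of the level. This distance is averaged over the lower and the upper side, and levels need not lie midway between their bounds.

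The 6 markers covered a wide range of levels and changed order with age. At P14 Pcp2 was the highest, at 328 FPKM in KO and 262 FPKM in control retina. Sebox, Prkca, Vstm2b, Car8 and Tpbg followed in that order in both genotypes, and the bounds of neighbours in this order did not overlap. At P7 the order was Pcp2, Prkca, Vstm2b, Car8, Sebox and Tpbg in both genotypes, and Sebox and Tpbg, the lowest pair, could not be told apart by their bounds. The summed level of the 6 genes was 479 FPKM in KO and 411 FPKM in control retina at P14. At P7 it was 194 FPKM in KO and 195 FPKM in control retina. Pcp2 made up most of each sum, and at P14 its levels given above account for most of the gap between KO and control.

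**Figure D1:**
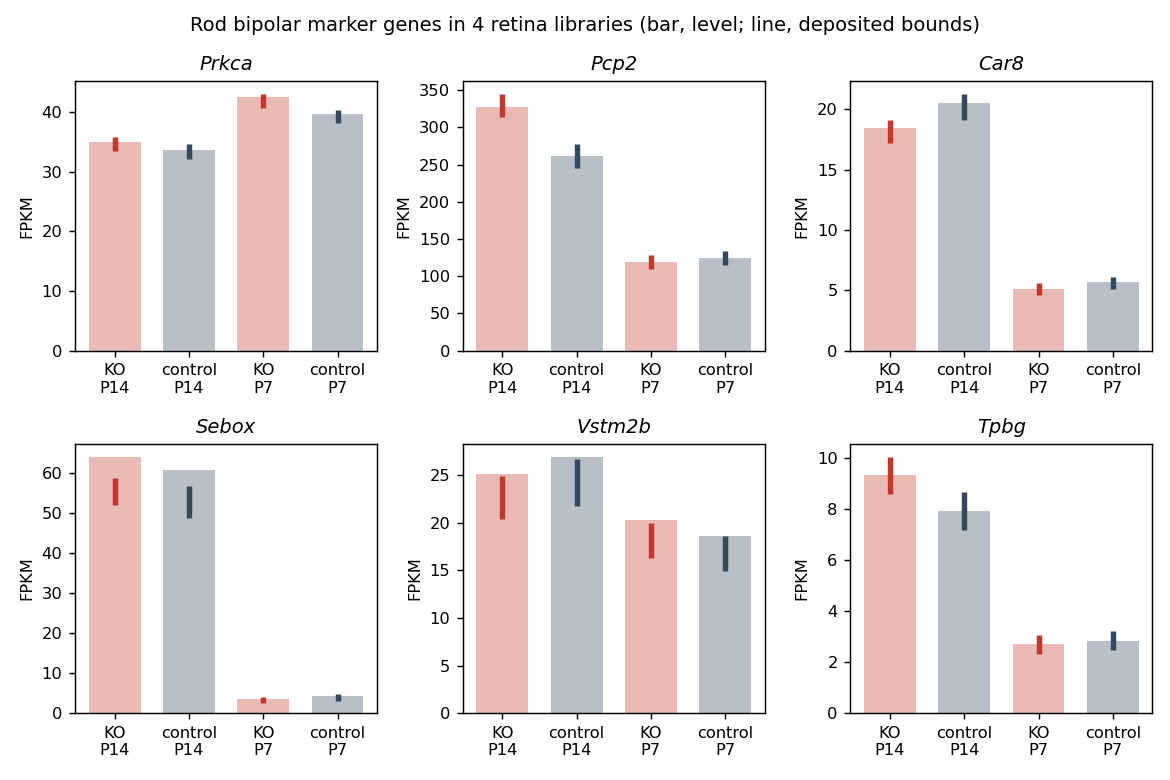
Level of each rod bipolar marker gene in the 4 retina libraries, in FPKM on a linear axis from 0, with 1 panel per gene. Bars show the deposited level and vertical lines the deposited bounds, which lie below the top of the bar for Sebox at P14 and for Vstm2b in 3 libraries. All genes but Prkca were higher at P14 than at P7 in both genotypes.

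At P14, compared with P7, 5 of the 6 markers were higher and Prkca was lower, in the KO and in the control retina. Differences are given as log2(FPKM + 1), P14 minus P7, which understates changes of low genes. The bounds of the ages did not overlap for any of the 6 genes in either genotype, 5 being higher and 1 lower at P14. Among all genes at 1 FPKM or more in either library, 28.7% were higher in this sense in the KO and 27.3% in the control, and 38.9% and 37.3% were lower. The median difference of the 6 genes was 1.46 in the KO and 1.14 in the control retina, where the medians of all genes were -0.09 and -0.09. Pcp2, Car8, Sebox and Tpbg were higher by 1.5-fold or more on this scale in both genotypes, as were 17.7% of all genes in the KO and 16.6% in the control.

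Sebox differed most between the ages. It was at 64.0 FPKM in KO and 60.7 FPKM in control retina at P14, against 3.60 FPKM in KO and 4.35 FPKM in control retina at P7. Both P14 libraries lay far above both P7 libraries, and the ratio of FPKM was 17.8 in the KO and 13.9 in the control. Only 0.682% of all genes in the KO and 0.761% in the control were further apart between the ages. The deposited levels of Sebox at P14 lay above their own upper bounds, 58.7 FPKM in KO and 56.7 FPKM in control retina, so its bounds were compared only with bounds.

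Car8 was at 18.4 FPKM in KO and 20.5 FPKM in control retina at P14, against 5.14 FPKM in KO and 5.67 FPKM in control retina at P7. Its age difference was nearly the same in both genotypes, 1.66 in the KO and 1.69 in the control. Tpbg, the lowest of the markers at P14, was at 9.32 FPKM in KO and 7.92 FPKM in control retina at that age, against 2.70 FPKM in KO and 2.85 FPKM in control retina at P7. That gave differences of 1.48 in the KO and 1.21 in the control.

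Pcp2 was at 119 FPKM in KO and 124 FPKM in control retina at P7, well below its P14 levels given above. Its age difference was 1.45 in the KO and 1.07 in the control. Vstm2b moved least among the genes that were higher at P14, at 25.1 FPKM in KO and 26.9 FPKM in control retina at P14, against 20.2 FPKM in KO and 18.6 FPKM in control retina at P7. The difference was 0.30 in the KO and 0.51 in the control, and in the KO the bounds of the ages overlapped once FPKM was rescaled to the same sum in every library (TPM scale).

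Prkca went the other way. It was at 34.9 FPKM in KO and 33.7 FPKM in control retina at P14, against 42.5 FPKM in KO and 39.7 FPKM in control retina at P7. The difference was -0.28 in the KO and -0.23 in the control, and 67.9% and 72.0% of all genes were further apart between the ages.

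All 4 libraries entered 1 limma model with additive terms for genotype and age and Benjamini-Hochberg adjustment over 13057 genes, which called Sebox, Car8, Tpbg, Pcp2 and Vstm2b higher and Prkca lower at P14. Fitted log2 changes were 3.67 ± 0.10 for Sebox (SE; adjusted p = 9.5e-06), 1.68 ± 0.09 for Car8 (adjusted p = 4.6e-05) and 1.35 ± 0.11 for Tpbg (adjusted p = 0.00017). Pcp2 rose by 1.26 ± 0.10 (adjusted p = 0.00015) and Vstm2b by 0.40 ± 0.09 (adjusted p = 0.0074), and Prkca fell by 0.25 ± 0.07 (SE; adjusted p = 0.021). The fit called 28.9% of all genes higher and 38.9% lower with age. It has 1 residual degree of freedom, with KO and control standing in for replicates of an age. Each SE also draws on a variance trend over all genes.

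**Figure D2:**
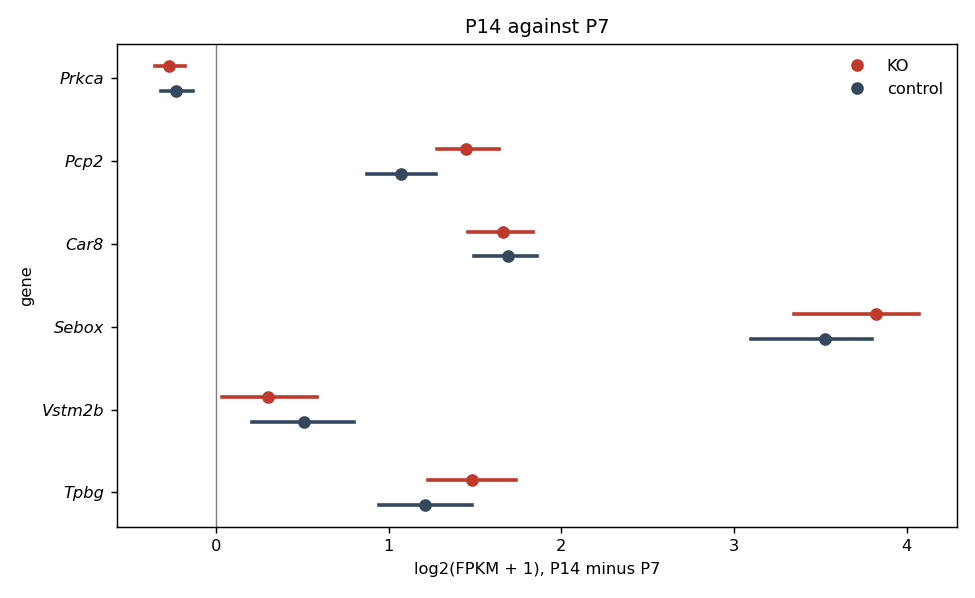
Difference in log2(FPKM + 1) between P14 and P7 for each marker gene, with the KO retina above the control retina. Points are differences of the deposited levels and lines run between the most distant bounds. Sebox lies near 3.82 in the KO and 3.53 in the control, and Prkca is the gene left of 0 in both genotypes.

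Sequence before the transcription start could be read for 5 of the 6 genes, from RefSeq promoters on the GRCm38.p6 build, whereas the levels were made on mm9. The stretches below are shown because they belong to the gene that rose most (Sebox), the gene that fell (Prkca) and the pair with the most alike profiles over the 4 libraries (Pcp2 and Tpbg). Each is the longest part of the 250 bases before the gene's first RefSeq start that no GENCODE M21 exon covers, 5′ to 3′ on the gene's strand. Pcp2 and Tpbg have other starts, whose stretches are not shown. Capitals mark the motifs searched on both strands, TAATCC of OTX and CRX homeodomain factors, TAATTA of other homeodomain factors, CANNTG (the E-box of basic helix-loop-helix factors) and GGGCGG (the GC box of SP and KLF factors).
Sebox, chr11:78503263-78503446, plus strand: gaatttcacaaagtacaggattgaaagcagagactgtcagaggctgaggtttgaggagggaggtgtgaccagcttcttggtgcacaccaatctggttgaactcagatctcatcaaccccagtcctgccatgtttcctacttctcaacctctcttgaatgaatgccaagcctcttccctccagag
Prkca, chr11:108343929-108344138, minus strand: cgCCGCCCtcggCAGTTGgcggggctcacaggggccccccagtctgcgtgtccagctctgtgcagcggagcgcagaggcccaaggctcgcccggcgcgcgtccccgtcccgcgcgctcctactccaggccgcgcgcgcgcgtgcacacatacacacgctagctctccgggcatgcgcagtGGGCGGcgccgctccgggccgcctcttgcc
Pcp2, chr8:3625607-3625778, minus strand: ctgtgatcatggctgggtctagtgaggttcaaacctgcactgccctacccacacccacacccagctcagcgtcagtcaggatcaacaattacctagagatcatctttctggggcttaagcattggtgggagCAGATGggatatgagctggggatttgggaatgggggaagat
Tpbg, chr9:85842130-85842379, plus strand: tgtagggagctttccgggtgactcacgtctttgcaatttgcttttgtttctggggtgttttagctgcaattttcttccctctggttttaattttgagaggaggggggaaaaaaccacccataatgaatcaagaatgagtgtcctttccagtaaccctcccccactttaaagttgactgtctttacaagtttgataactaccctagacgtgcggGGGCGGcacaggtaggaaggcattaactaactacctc

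None of these motifs was in the windows of all 5 genes. Across the 9 windows of 250 bases that the 5 genes have, some of which overlap at Pcp2, TAATCC was in 0 and TAATTA in 1, a Pcp2 window. Of all 32817 promoter windows of this length 6.25% held TAATCC and 4.85% TAATTA. The E-box was in 5 windows of 2 genes (Prkca and Pcp2), against 66.2% of all windows, and the GC box in 4 windows of 3 genes (Prkca, Vstm2b and Tpbg), against 32.7%. The Sebox window held none of the motifs. Base composition differed as well, with 76.8% G and C before Prkca, 72.4% before Vstm2b, 52.8% before the first Pcp2 start and 52.4% before Sebox. The first Tpbg start had 45.2% and the second 64.8%. The median of all windows was 52.4%. These motif counts and G and C values cover whole windows, with any exon bases included. GENCODE M21 exons covered from 0 of the 250 bases (first Tpbg start) to all 250 (Vstm2b), with 187 at the second Tpbg start.

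Sebox lies on chromosome 11 from base 78317015 to 78318584 (mm9, from the deposited files, counted from 1), 1188 bases downstream of Vtn, and GENCODE places both on the plus strand. Vtn encodes vitronectin, an adhesion protein of the extracellular matrix. Its level was 375 FPKM in KO and 369 FPKM in control retina at P14, against 22.0 FPKM in KO and 19.9 FPKM in control retina at P7. The ratio of its FPKM between the ages was 17.0 in the KO and 18.5 in the control, set beside 17.8 in the KO and 13.9 in the control for Sebox. The Sebox level was 17.1% of the Vtn level in the KO and 16.4% in the control library at P14, and 16.3% in the KO and 21.8% in the control library at P7. Of 9175 other genes, Vtn had the 11th most alike profile to Sebox. Whether reads from Vtn transcripts entered the Sebox level was not tested.

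Pcp2 lies on chromosome 8 from base 3623371 to 3625545 (mm9), where the files also place 2900053A13Rik (Pet100 in RefSeq), from base 3621551 to 3624235. GENCODE has these genes on opposite strands, and the library preparation names no strand marking, so reads in the shared stretch cannot be told apart. The level of 2900053A13Rik was 9.44 FPKM in KO and 12.6 FPKM in control retina at P14 and 4.28 FPKM in KO and 6.23 FPKM in control retina at P7, far below that of Pcp2 and lower in the KO at both ages beyond its bounds.

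No locus in the files overlapped the other markers. Prkca spans bases 107794701 to 108205202 of chromosome 11, Car8 bases 8068640 to 8166188 of chromosome 4, Vstm2b bases 48154648 to 48185338 of chromosome 7 and Tpbg bases 85735987 to 85740662 of chromosome 9 (mm9). Loci nearest to Car8 and Tpbg, Rab2a and Ibtk, were lower at P14 where these markers were higher. Cacng5, nearest to Prkca, was higher at P14 where Prkca was lower. A230077H06Rik, 954 bases from Vstm2b and on the opposite strand in GENCODE, was higher at P14 beyond its bounds, by 0.56 in the KO and 0.56 in the control on the log2(FPKM + 1) scale, in the same direction as Vstm2b.

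**Figure D3:**
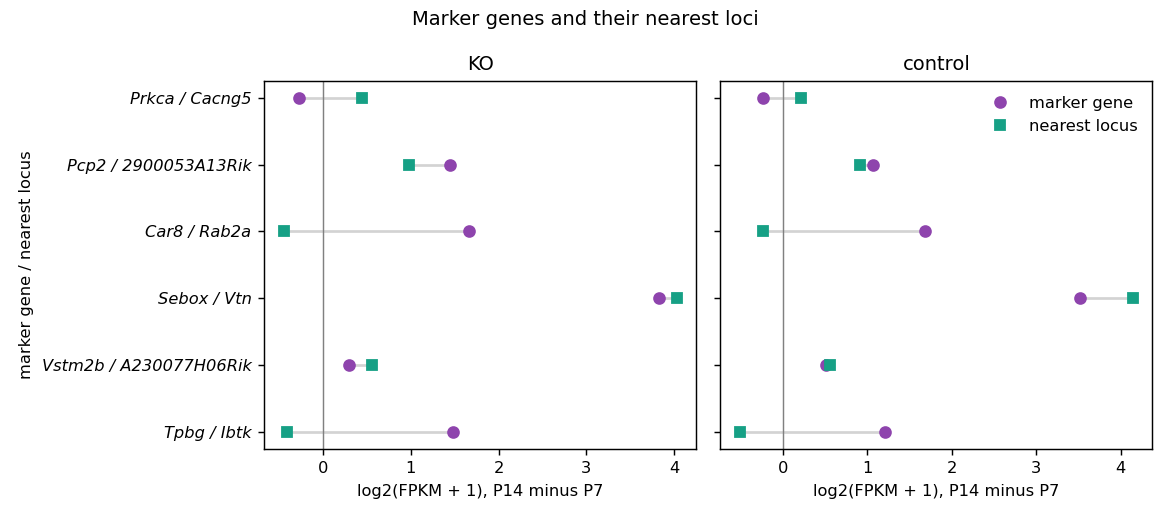
Difference in log2(FPKM + 1) between P14 and P7 for each marker gene (circle) and the locus nearest to it in the deposited files (square), in the KO retina (left) and the control retina (right). Sebox and Vtn lie together at the far right, at 3.82 and 4.03 in the KO and at 3.53 and 4.14 in the control.

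Each of the 6 markers differed less between KO and control retina, at either age, than between the ages in either genotype. At P14 the differences in log2(FPKM + 1), KO minus control, ran from -0.15 for Car8 to 0.32 for Pcp2, with a median of 0.06 where all genes had a median of 0.00. None of the 6 genes differed by 1.5-fold, which 2.38% of all genes did. Pcp2 alone had bounds that did not overlap between the genotypes, and it was higher in the KO, at 313.5 to 344.9 FPKM in KO and 245.8 to 278.2 FPKM in control retina. Among all genes 7.38% were higher and 8.18% lower in this sense at P14, and 9.07% were further apart between the genotypes than Pcp2. Higher genes made up 47.4% of those with bounds apart, or 30.9% on the TPM scale.

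Tpbg was the next highest in the KO at P14, with a difference of 0.21 and bounds of 8.59 to 10.1 FPKM in KO and 7.16 to 8.68 FPKM in control retina. These overlapped narrowly. Car8 was the lowest, with bounds of 17.2 to 19.1 FPKM in KO and 19.1 to 21.3 FPKM in control retina. The Car8 bounds also overlapped narrowly, and they came apart, with Car8 lower in the KO, on the TPM scale and when the median difference of all genes was set to 0. Sebox (0.08), Prkca (0.05) and Vstm2b (-0.10) had bounds that overlapped widely.

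At P7 the differences, KO minus control, ran from -0.22 for Sebox to 0.11 for Vstm2b, with a median of -0.06 where all genes had one of 0.01. None of the 6 genes differed by 1.5-fold, against 1.97% of all genes. Prkca alone had bounds that did not overlap, at 40.7 to 43.0 FPKM in KO and 38.1 to 40.3 FPKM in control retina, a difference of 0.09. On the TPM scale its bounds overlapped (0.07). Among all genes 7.25% were higher and 6.09% lower in this sense at P7, and 51.1% were further apart than Prkca. Higher genes made up 54.4% of those with bounds apart, or 40.7% on the TPM scale.

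Pcp2 (-0.05), Car8 (-0.12), Tpbg (-0.06) and Sebox were lower in the KO at P7 within overlapping bounds, and Vstm2b was higher within them. Prkca was higher and Car8 lower in KO retina at P14 and also at P7. The limma fit called 0 of the 6 genes for genotype, and 0 of them had an unadjusted p under 0.05 (adjusted p from 0.76 for Car8 to 0.99 for Vstm2b). It called 0.0536% of all genes higher and 0.207% lower in the KO. Its fitted difference, KO minus control averaged over both ages, was 0.13 ± 0.10 for Pcp2, -0.13 ± 0.09 for Car8 and 0.08 ± 0.11 for Tpbg (SE). For Prkca it was 0.07 ± 0.07, for Sebox -0.07 ± 0.10 and for Vstm2b 0.01 ± 0.09 (SE). This fit does not test the genotypes at P14 or at P7 alone.

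**Figure D4:**
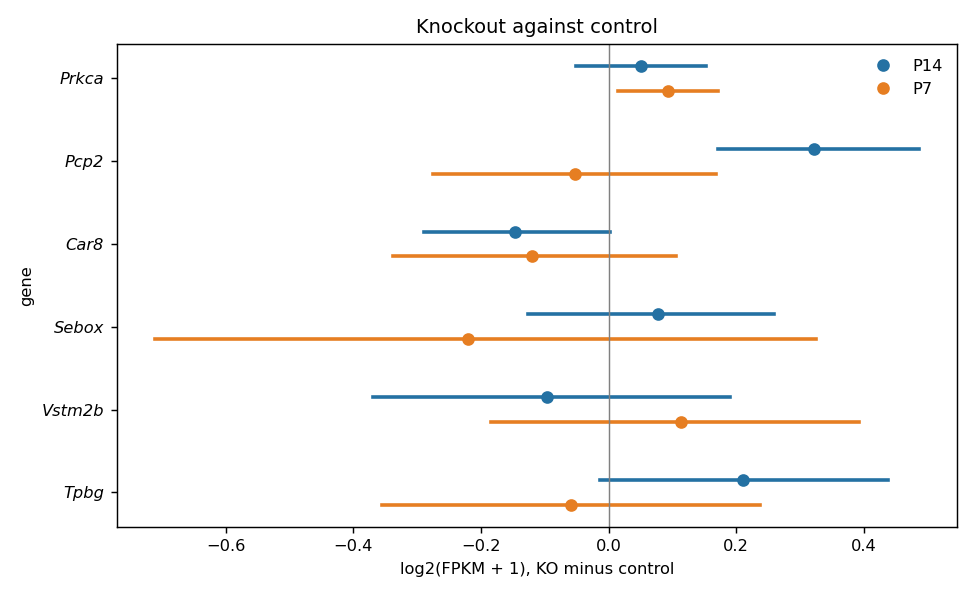
Difference in log2(FPKM + 1) between the KO and the control retina for each marker gene, with P14 above P7. Points are differences of the deposited levels and lines run between the most distant bounds. The lines of Pcp2 at P14 and of Prkca at P7 lie wholly right of 0, and the other 10 cross it.

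The genes around mGluR6 and TRPM1, and other genes used by rod bipolar cells, were also followed. Their levels are those of whole retina and cannot be assigned to bipolar cells. Of the 18 genes of this list the limma fit called 12 higher and 4 lower at P14, beside 28.9% of all genes called higher and 38.9% called lower. Gabrr2, a subunit of the GABA receptor on bipolar cell terminals, was at 34.4 FPKM in KO and 40.5 FPKM in control retina at P14, against 2.19 FPKM in KO and 2.65 FPKM in control retina at P7. Gng13, the G protein gamma subunit of ON bipolar cells, was at 322 FPKM in KO and 285 FPKM in control retina at P14, against 19.8 FPKM in KO and 28.7 FPKM in control retina at P7. Both changes resembled that of Sebox in size, with fitted log2 changes of 3.49 and 3.61. Nyctalopin (Nyx, 2.01), Trpm1 (1.81) and Gnb5 (1.66), whose product pairs with RGS proteins, rose as well. The transcription factor genes Isl1 (-1.07), Prdm8 (-0.66) and Bhlhe23 (-0.50) and the G protein beta subunit gene Gnb3 (-1.02) fell, like Prkca.

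Between the genotypes, 11 of these 18 genes were lower and 7 higher in the KO at P14, with a median difference of -0.05. Bounds did not overlap for 5 of the lower and 2 of the higher genes. Among all genes 8.18% were lower and 7.38% higher in this sense. Rgs7, which encodes a protein that speeds G protein inactivation, was at 18.7 FPKM in KO against 21.6 FPKM in control retina (-0.20), Gabrr2 was lower by the values above (-0.23), and Rgs9bp, an anchor of RGS proteins, was at 77.9 FPKM in KO against 82.1 FPKM in control retina (-0.07). Gnb5 was at 473 FPKM in KO against 383 FPKM in control retina (0.30) and Prdm8, a regulator of rod bipolar formation in mice, at 34.1 FPKM in KO against 28.9 FPKM in control retina (0.23). Grm6, the mGluR6 gene (-0.26), and Trpm1 (-0.23) were lower.

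At P7, 12 of 17 measured genes of the list were lower and 5 higher in the KO, with a median of -0.09. Bounds did not overlap for 5 of the lower and 1 of the higher genes. Among all genes 6.09% were lower and 7.25% higher in this sense. Gng13 had the largest difference of the list (-0.51). Gnb5 was at 128 FPKM in KO against 141 FPKM in control retina (-0.14), opposite in sign to P14. Gabrr1 (-0.27), Grm6 (-0.26) and Trpm1 (-0.20) were lower and Gnb3 (0.27) was higher. Grm6 and Trpm1 were the genes of the list lower beyond their bounds at both ages, joined by Gabrr1 on the TPM scale. The limma fit called 0 of the 18 genes for genotype, with 3 at an unadjusted p under 0.05, as were 955 of all 13057 genes.

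**Figure D5:**
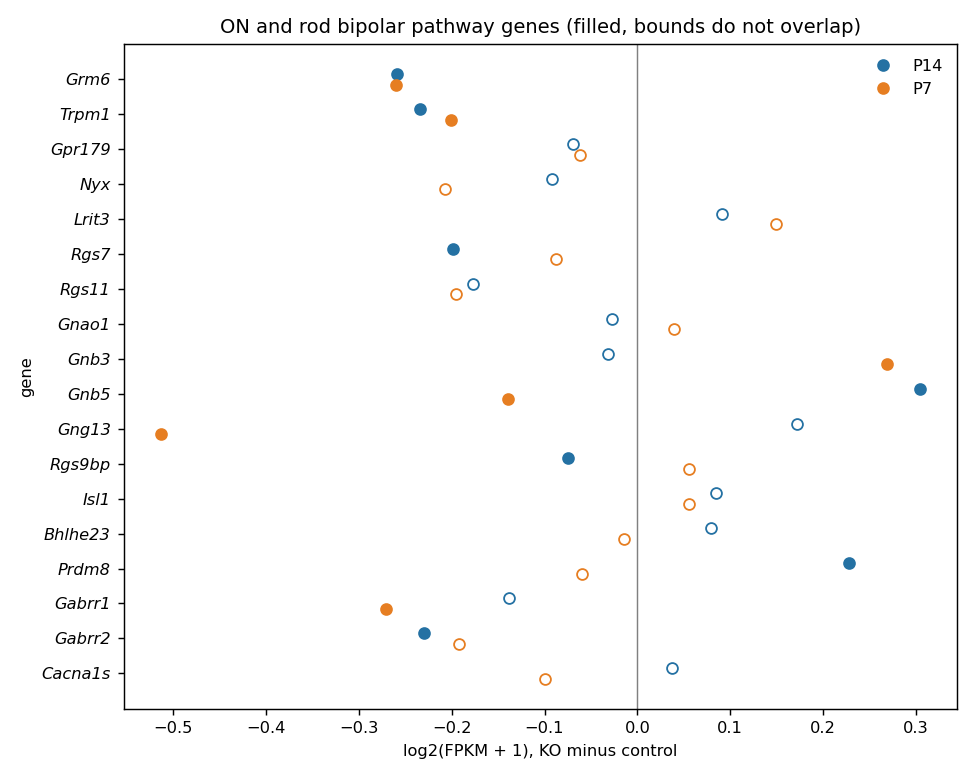
Difference in log2(FPKM + 1) between the KO and the control retina for the 18 listed ON and rod bipolar pathway genes, measured in whole retina. For each gene P14 lies above P7. Filled points have bounds that do not overlap between the genotypes. Grm6 and Trpm1 are filled left of 0 at both ages, and Gnb5 is filled at 0.30 at P14 and at -0.14 at P7.

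Markers of other cells also differed between the same libraries. Among all genes, 7.38% were higher and 8.18% lower beyond their bounds in the KO at P14, and 7.25% and 6.09% at P7. At P14 all 10 listed OFF cone bipolar genes were measured, 9 lower and 6 of them beyond their bounds in the KO, and their summed level was 90.1 FPKM in KO and 123 FPKM in control retina. Of 8 genes of bipolar cells in general 7 were lower, 5 beyond their bounds, with sums of 399 FPKM in KO and 484 FPKM in control retina. All 5 erythroid genes were lower beyond their bounds (sums of 356 FPKM in KO and 1180.0 FPKM in control retina). Of 9 measured pigment epithelium genes 7 were lower, 6 beyond their bounds (411 FPKM in KO and 457 FPKM in control retina). Most of both pigment epithelium sums was Rlbp1 (303 FPKM in KO and 301 FPKM in control retina), which the Müller glia list also holds. All 7 measured immediate early genes were higher, 6 beyond their bounds (105 FPKM in KO and 51.1 FPKM in control retina). Amacrine genes, 8 measured of 10 listed, had 1 higher and 1 lower beyond their bounds (682 FPKM in KO and 616 FPKM in control retina). Calb2, the higher one, made up most of both sums, at 431 FPKM in KO and 355 FPKM in control retina. Without regard to bounds, 4 amacrine genes were higher and 4 lower. At P7, by contrast, all 5 erythroid genes were higher in the KO, 1 beyond its bounds (339 FPKM in KO and 291 FPKM in control retina), and 5 OFF cone bipolar genes were higher and 2 lower beyond their bounds (173 FPKM in KO and 149 FPKM in control retina). None of these lists has a gene in common with the 6 markers, and their part in the values of the markers was not tested.

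With age, 9 of 10 rod genes were higher beyond their bounds in both genotypes, their sum being 22473 FPKM in KO and 21164 FPKM in control retina at P14, against 6182 FPKM in KO and 6016 FPKM in control retina at P7. Of 8 amacrine genes 6 were higher beyond their bounds in both genotypes. Among all genes 28.7% were higher and 38.9% lower in this sense in the KO, and 27.3% and 37.3% in the control. Genes of bipolar cells in general split evenly, 4 higher and 4 lower beyond their bounds, and their sum was lower at P14. The part of these shifts in the levels of the markers was not tested.

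The markers did not share a single profile. Likeness was measured as the distance between the 4 log2(FPKM + 1) values after subtracting each gene's own mean, which gives the size as well as the shape of a change and rests on 4 libraries. Pcp2 and Tpbg were nearest to each other (0.12), followed by Car8 and Tpbg (0.42), and Prkca and Sebox were furthest apart (3.93). Of 9175 other genes with a mean of 5 FPKM or more, those nearest to Sebox were Slc24a1, which encodes the cation exchanger of rod outer segments (0.17), A930006I01Rik (0.17) and Gng13 (0.23). Slc24a1 was at 256 FPKM in KO and 236 FPKM in control retina at P14, against 15.1 FPKM in KO and 17.6 FPKM in control retina at P7.

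Nearest to Pcp2 were Mypop (0.05), Rhpn2 (0.07) and Fxyd6 (0.10), the last encoding a regulator of the sodium pump. Tmem38a, a cation channel gene of intracellular membranes (0.05), Kcnip3, a calcium-binding partner of potassium channels (0.07), and the small GTPase gene Rit2 (0.08) were nearest to Car8. Tpbg was most like Mon1a (0.04), AI836003 (0.05) and N6amt2 (0.05). Vstm2b lay closest to the lysosomal sulfatase gene Arsa (0.02), Scoc (0.03) and Dnajc15 (0.03). Prkca was most like 1110038F14Rik (0.02), the ribosome assembly gene Rpf1 (0.02) and the BBSome gene Bbs9 (0.02).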

How the data were processed

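Per the labels' protocols, cDNA of about 200 bp made with random primers was amplified by 15 PCR cycles and read as single ends on an Illumina GA sequencer. FPKM and its bounds were deposited by the authors. Per the submitters' processing notes, CASAVA 1.8.2, TopHat2 2.0.8b, Cufflinks 2.1.1 and mm9 were used. Options and annotation are not stated in the sources used here.

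Levels of a symbol with several loci were summed, and 16 symbols with a failed level were left out. FPKM exceeded its own upper bound at 1809 to 2243 loci. The files hold no counts, so depth is unknown and no count test was run. Values were compared as log2(FPKM + 1) among genes at 1 FPKM or more in either library. A limma 3.58.1 fit (R 4.3.3, variance trend, additive genotype and age) used genes reaching 1 FPKM in 2 or more libraries. It was also run on data simulated from its own additive model and variances. Such a run cannot show that the fit suits libraries without replicates. Alternatives were a pseudocount of 0.1 FPKM, a TPM scale, centring on the median, no floor, and leaving out small RNAs and loci under 300 bases. Named genes were the 6 markers, Fezf2, listed pathway genes whose bounds did not overlap between genotypes, and the 3 genes nearest to each marker in profile. The loci nearest to the markers (Vtn, 2900053A13Rik, Rab2a, Ibtk, Cacng5, A230077H06Rik) and Nyx, Isl1, Bhlhe23, Rlbp1 and Calb2 were added after values were seen. Markers, lists and rules were chosen with earlier results of these data known.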

Additional observations from a re-analysis of the deposited data

Results flagged for a closer look

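For 4 of the 6 markers the KO and control libraries differed in opposite directions at the ages, which was not tested, since each difference rests on 2 libraries. The difference KO minus control in log2(FPKM + 1) at P14 exceeded that at P7 by 0.38 for Pcp2 (0.32 at P14, -0.05 at P7), by 0.30 for Sebox (0.08 at P14, -0.22 at P7) and by 0.27 for Tpbg (0.21 at P14, -0.06 at P7). For Vstm2b the P14 difference minus the P7 difference was -0.21 (-0.10 at P14, 0.11 at P7). Of these 8 differences between genotypes, the one of Pcp2 at P14 had bounds that did not overlap.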

How the results depend on the processing

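On the TPM scale the count of markers higher in the KO at P7 beyond their bounds became 0 in place of 1, because the Prkca bounds then overlapped. The count of markers lower in the KO at P14 became 1 in place of 0, Car8, on the TPM scale and with the median difference of all genes set to 0. The limma difference between genotypes of Vstm2b became -0.0205 on the TPM scale in place of 0.01. Pcp2 was higher in the KO at P14 beyond its bounds under every scaling (0.29 to 0.32). All 6 age calls by limma held under each alternative. The limma fit called 34 genes for genotype, or 2 with no floor. Each group has 1 library and the labels give no replicate numbers, so no replicates could be paired. The limma fit, with its additive age term, sets KO against control at each age and averages the 2 differences. It gives no test of the genotypes at P14 or at P7 alone. Its error for a gene joins how far the genotype differences at the ages disagree to a variance trend over all genes. In the main fit that trend carried 5.09 prior degrees of freedom against 1 residual degree of freedom. The trend therefore weighs more than the gene's own values. With 1 library a group no replicate could be left out. Depth is unknown, so genes such as Tpbg and Sebox at P7 are limited by bounds that the files give and not by counts.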

Other observations

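Cone and Müller glia genes were not used in the account of the markers. All 10 cone genes were higher at P14 in both genotypes, 8 of them beyond their bounds, with a summed level of 1150.0 FPKM in KO and 1059 FPKM in control retina at P14, against 470 FPKM in KO and 386 FPKM in control retina at P7. Of 10 Müller glia genes 7 were higher and 3 lower beyond their bounds at P14 in both genotypes. With age, 28.7% of all genes were higher and 38.9% lower in this sense in the KO, and 27.3% and 37.3% in the control. Between the genotypes, bounds did not overlap at P14 for 2 cone genes that were higher in KO retina and 3 that were lower, and for 3 Müller glia genes that were higher and 1 that was lower. Of 7 measured ON cone bipolar genes, 2 were lower and 0 higher beyond their bounds in KO retina at P14. At P7 0 were lower and 1 higher. The shares of all genes in these genotype comparisons were 8.18% lower and 7.38% higher at P14, and 6.09% and 7.25% at P7.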
